A study of Mus musculus with 6 samples.

Results

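The genes described here are 50 mouse genes that carry Wnt signals: 18 Wnt ligands, 10 Frizzled receptors, 2 co-receptors, 2 genes of ligand secretion, 4 cytoplasmic transducers, beta-catenin with its 4 DNA-binding partners, 4 nuclear co-activators, and 5 genes of the R-spondin and Lgr branch. They were picked by symbol, and all 50 were found among the 44804 rows kept of the deposited expression table. The study profiled 6 cells from 3 mice, named 1157, 1168 and PDGF1. From each came 1 circulating tumor cell (CTC), which is a tumor cell found in blood, and 1 tumor cell, whose sample title carries the letters GBM. Values are listed below in the order of mice 1157, 1168 and PDGF1 unless a mouse is named, and "tumor" alone stands for the tumor cell. The labels give no strain, age, tumor-inducing allele or treatment for the mice. The series text calls all 6 profiles single cells, while the source label says so for the CTCs alone.

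A Wnt ligand is lipid-modified and carried to the cell surface, where it binds a Frizzled receptor together with Lrp5 or Lrp6. Dishevelled proteins then relay the signal, beta-catenin escapes breakdown, enters the nucleus and joins TCF or LEF proteins on DNA to switch on target genes. R-spondins strengthen the signal through Lgr receptors by protecting Frizzled proteins from removal. In the brain the pathway is known for its part in neural progenitors, and it has been studied in glioma for its link to stem-like cells.

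Values are FPKM, the fragments of a gene normalised for how long its transcript is and how many fragments the library holds. In genes with 1 annotated transcript the low values stepped by whole fragments, which gave depths from about 11800000 fragments (tumor cell of mouse 1157) to about 56300000 (tumor cell of mouse 1168). For a transcript of 3000 bases, 3 fragments were worth between 0.0190 and 0.0918 FPKM. The RNA had been amplified in repeated rounds, so fragments are not independent molecules and these figures cover counting alone. Cells of mouse 1168 held far more genes at 1 FPKM or more, with 9702 (CTC) and 11239 (tumor), than the other 4 cells, with 1486 to 4078. The FPKM of all rows summed to between 46973 (CTC of mouse PDGF1) and 727351 (CTC of mouse 1168). Named protein-coding genes made up 11.8% and 85.0% of these 2 sums. Levels below are not corrected for such gaps between cells unless a rescaling is named. Markers of oligodendrocyte progenitors, glial precursors often resembled by glioma cells, reached 1 FPKM for 7 of 8 in both cells of mouse 1168, for 4 (CTC) and 3 (tumor) in mouse 1157, and for 0 in both cells of mouse PDGF1. The 3 in the tumor cell of mouse 1157 were Olig2, Nkx2-2 and Bcan, at 1.58, 1.46 and 1.26 FPKM. All 3 lie under the background of 1.85 FPKM given below for that cell. The labels could thus be set against lineage markers in mouse 1168 and less so in the CTC of mouse 1157. In the tumor cell of mouse 1157 and in mouse PDGF1 they could not. Of 10 microglia and macrophage markers, 8 reached 1 FPKM in the tumor cell of mouse 1168 (summed level 1935 FPKM) and 3 in its CTC (196 FPKM). In the other 4 cells between 1 and 4 did, with sums of 1.86 to 20.7 FPKM. Of 7 astrocyte markers, 2 reached 1 FPKM in the mouse 1168 CTC (summed level 159 FPKM) and 4 in its tumor cell (381 FPKM), most of it S100b at 108 and 364. In the other 4 cells between 0 and 2 did, with sums of 3.17 to 10.9 FPKM, and Gfap, the defining one, was at most 0.609 FPKM in any cell.

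Wnt members were found mostly in mouse 1168, and in no cell did more than 19 of the 50 reach 1 FPKM. The CTCs held 9, 16 and 3 of them and the tumor cells 12, 19 and 7. The CTC thus held fewer in 3 of 3 mice, by 3.33 ± 0.577 (SD, n = 3 pairs) on average. At 5 FPKM or more the differences were -3, 0 and -2. After rescaling to equal sums over all rows they were -19, 0 and -5, and over named protein-coding genes -31, -2 and -1, so that "fewer in 3 of 3" did not hold in the first 2 of these settings and mouse 1157 carried the rescaled means. Named protein-coding genes as a whole went the same way, at 10.3% against 16.0%, 43.1% against 49.8%, and 4.85% against 10.3%, CTC first. As shares the members stood at 18% and 24%, 32% and 38%, and 6% and 14%. Wnt members therefore lay above the coding genes in mice 1157 and PDGF1 and below them in mouse 1168, without a test.

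The level at which a gene counts as found changed that order. As a background measured in each cell, the 99th percentile of 1585 receptor rows of the nose (olfactory and vomeronasal) was 0.786, 0.135 and 3.50 FPKM for the CTCs and 1.85, 1.60 and 7.03 FPKM for the tumor cells. Members above it numbered 10, 28 and 1 for the CTCs and 8, 14 and 2 for the tumor cells. By this count the CTC held more members in 2 of 3 mice, and the gap was largest in mouse 1168, whose CTC had the lowest background of the 6 cells. Named protein-coding genes stood at 13.0%, 53.7% and 1.81% in the CTCs and at 8.26%, 44.3% and 1.45% in the tumor cells, so that they too were higher in the CTC, in 3 of 3 mice. As shares the members were at 20%, 56% and 2% in the CTCs and 16%, 28% and 4% in the tumor cells, which for the mouse 1168 CTC is above the coding genes and not below them as at 1 FPKM. The members above background in mouse PDGF1 were Wnt5a in the CTC, and Bcl9 and Dvl2 in the tumor cell. A stricter level is the highest receptor row of each cell. Members above that row numbered 0, 11 and 0 for the CTCs and 1, 8 and 0 for the tumor cells.

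**Figure D1:**
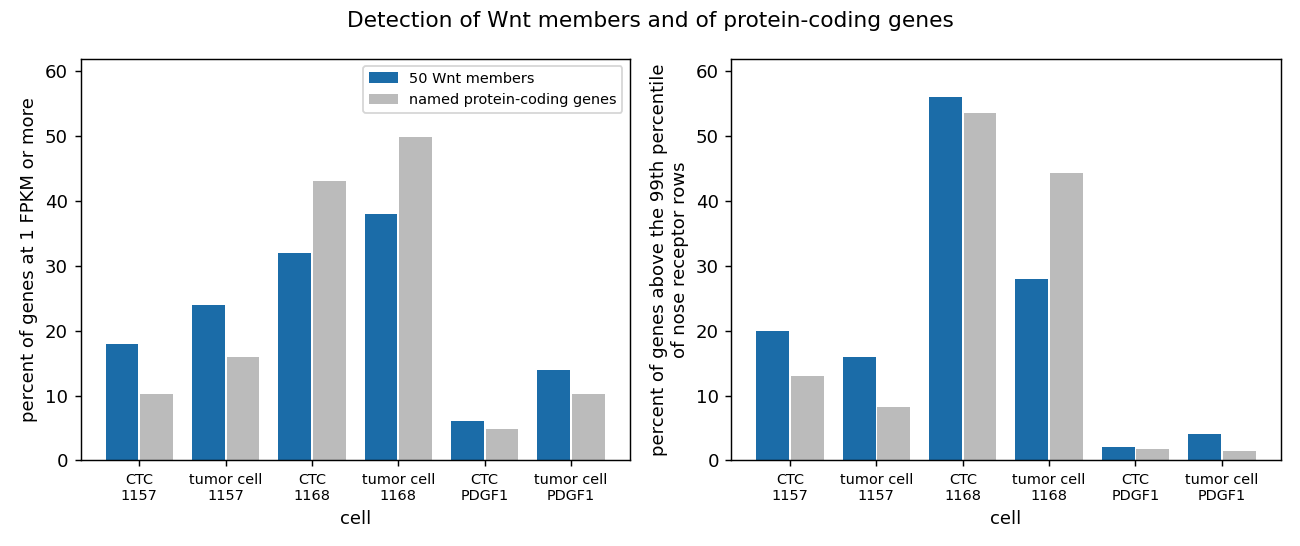
Share of the 50 Wnt members (blue) and of named protein-coding genes (grey) at 1 FPKM or more (left) and above the 99th percentile of nose receptor rows in the same cell (right), in percent, for each of the 6 cells. On the left the CTC bar is the shorter one in each mouse, while on the right the CTC of mouse 1168 is the tallest, at 56% of members.

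Across the 6 cells, 20 members stayed under 1 FPKM in every cell, 8 reached it in 1 cell, 15 in 2 cells, 2 in 3, 4 in 4, and 1, Rspo1, in all 6. Of the 15 found in 2 cells, 8 were found in both cells of mouse 1168: Wnt5b, Fzd1, Fzd3, Fzd10, Porcn, Wls, Dvl1 and Tcf7l2. The other 7 were found in cells of 2 different mice.

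**Figure D2:**
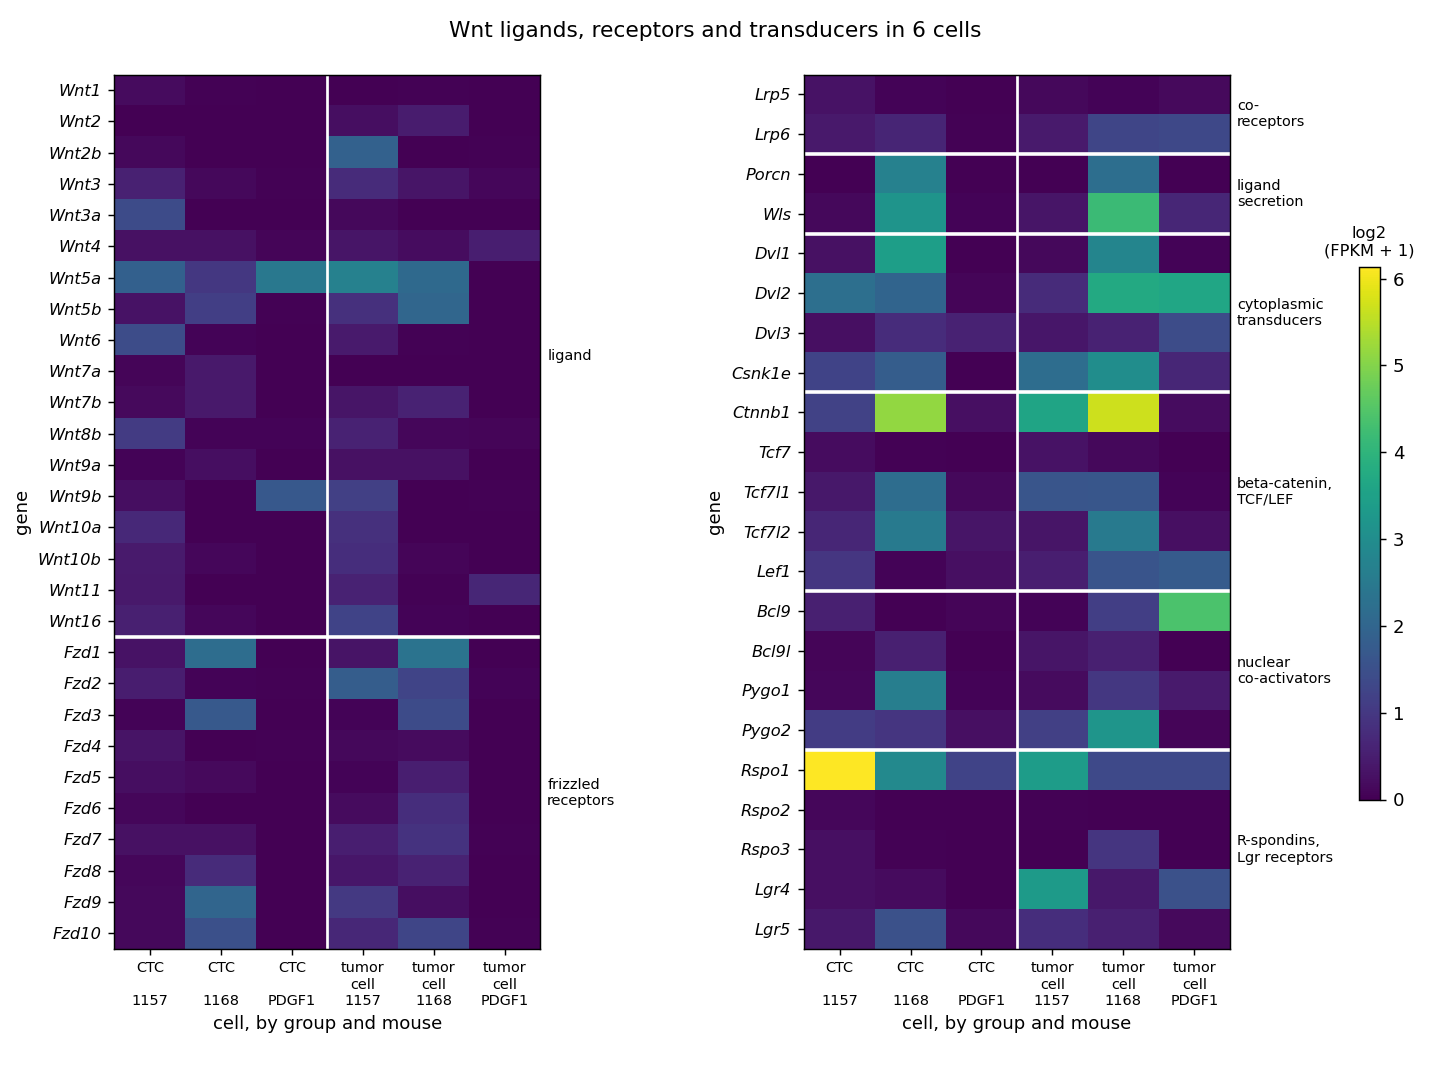
Level of each of the 50 Wnt members as log2(FPKM + 1), from 0 (dark) to the highest value (yellow), with rows grouped by role and columns by group and mouse. Fzd1, Fzd3, Fzd10, Porcn, Wls, Dvl1, Ctnnb1 and Tcf7l2 are brightest in both columns of mouse 1168, and the brightest single field is Rspo1 in the CTC of mouse 1157, at 69.5 FPKM.

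Among ligands, Wnt5a, best known for signalling outside the beta-catenin route, was the most widely found. CTC levels were 2.68, 0.9995 and 4.53 FPKM, and tumor levels were 5.45, 3.28 and 0.0142. The groups overlapped: the tumor cell was higher in mice 1157 and 1168, and the CTC was higher in mouse PDGF1, where Wnt5a was the highest member. Exons of the predicted gene Gm2670 lie on the opposite strand over those of Wnt5a (chromosome 14, 28504750 to 28527448, GRCm38). The sources used here do not give whether the counting used strand, so reads of such pairs cannot be told apart. The same limit holds for Csnk1e (with Gm16059), Tcf7l1 (with Gm15401), Dvl1 (with Tas1r3) and Lef1 (with Gm43352), and for Wnt7b, Wnt11, Fzd5, Fzd6, Bcl9l and Rspo3, which also have exons of another gene on the opposite strand.

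Wnt5b, its closest relative, had CTC levels of 0.224, 1.22 and 0.0324 FPKM and tumor levels of 0.804, 3.06 and 0.0113. Both cells of mouse 1168 were highest, and the tumor cell was above the CTC there and in mouse 1157.

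Other ligands reached 1 FPKM in 1 or 2 cells each, all of them cells of mice 1157 and PDGF1. Wnt3a, a classic activator of beta-catenin, reached 1.63 FPKM in the mouse 1157 CTC, about 116 fragments, while the other 5 cells held 1 to 3 fragments each. Wnt6 and Wnt8b also peaked in that CTC, above its background. Wnt6 had CTC levels of 1.68, 0.0505 and 0 FPKM and tumor levels of 0.361, 0.0244 and 0. Wnt8b had CTC levels of 1.11, 0.0396 and 0.0437 FPKM and tumor levels of 0.512, 0.0781 and 0.0609. Wnt9b reached 2.23 FPKM in the mouse PDGF1 CTC, about 415 fragments against 4 for tumor, yet 2.23 lies under that cell's receptor background of 3.50. The mouse 1157 tumor cell held 1.24 FPKM of it, and there Wnt2b (2.74) and Wnt16 (1.37) peaked. Of these 3 only Wnt2b passed the background of that cell.

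The remaining 10 ligands stayed under 1 FPKM in all cells. Their highest values ran from 0.134 for Wnt1 through 0.219 for Wnt9a, 0.339 for Wnt7a, 0.378 for Wnt2, 0.430 for Wnt4, 0.497 for Wnt7b, 0.587 for Wnt11, 0.685 for Wnt3 and 0.747 for Wnt10b to 0.804 for Wnt10a. Wnt7a was the 1 member of 50 whose CTC values all lay above the tumor cell values, at 0.0612, 0.339 and 0.0156 FPKM against 0, 0 and 0.00813. Of all rows with a value above 0, 0.474% had CTCs fully above and 2.88% fully below. Only the CTC of mouse 1168 held Wnt7a above its receptor background. In mouse PDGF1 both values lie under the worth of 3 fragments of a 3000-base transcript, 0.0248 FPKM (CTC) and 0.0258 (tumor). The full separation thus rests on very few fragments there.

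TCF and LEF proteins bind the motif CTTTGAT, which reads ATCAAAG on the other strand. RefSeq promoters on build GRCm38.p6 were at hand for 36 of the 50 members, in 50 windows, since some genes have several starts. In the 250 bases before the start, 2 of these windows (4%) held the motif on either strand, against 3.21% of all 32851 windows, a share near the background. The windows are those of Wnt5b (chr6:119449387-119449636, minus strand) and Wnt11 (chr7:98834862-98835111, plus strand), shown because they are the ligand promoters with a match. Each is given 5′ to 3′ along the gene, with the motif in capitals, which begins 71 bases before the start in Wnt5b and 51 before it in Wnt11.
Wnt5b: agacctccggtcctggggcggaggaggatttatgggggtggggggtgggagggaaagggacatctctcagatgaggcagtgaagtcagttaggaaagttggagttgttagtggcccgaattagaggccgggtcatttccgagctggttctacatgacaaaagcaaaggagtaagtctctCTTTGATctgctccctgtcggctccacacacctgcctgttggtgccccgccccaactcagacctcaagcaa
Wnt11: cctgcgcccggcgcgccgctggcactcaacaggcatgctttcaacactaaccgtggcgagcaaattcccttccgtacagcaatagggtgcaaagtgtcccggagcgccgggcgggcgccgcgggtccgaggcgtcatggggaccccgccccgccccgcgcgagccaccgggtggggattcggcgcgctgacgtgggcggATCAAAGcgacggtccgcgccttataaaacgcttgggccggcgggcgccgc
Of the pair, Wnt5b reached 1 FPKM in both cells of mouse 1168, and Wnt11 peaked at 0.587 FPKM, in the mouse PDGF1 tumor cell.

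Both genes of ligand secretion belonged to mouse 1168. Porcn, which attaches the lipid to Wnt ligands, read 5.53 FPKM for CTC and 3.69 for tumor in that mouse, and at most 0.0150 in the other 4 cells. Wls, the carrier that brings ligands to the surface, read 7.999 and 17.1 FPKM there, and at most 0.584 elsewhere. Within mouse 1168 the CTC was thus higher for Porcn and lower for Wls.

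Of the 10 Frizzled receptor genes, 5 reached 1 FPKM: Fzd1, Fzd2, Fzd3, Fzd9 and Fzd10, 4 of them in each cell of mouse 1168. Fzd1 read 3.54 FPKM (CTC) and 4.06 FPKM (tumor) in that mouse, about 449 and 913 fragments, and at most 0.256 in the other cells. Fzd3, a receptor used in axon growth and planar polarity, was at 2.30 and 1.64 FPKM, with at most 0.0459 elsewhere. Fzd10 read 1.83 and 1.44 FPKM in these cells, and 0.617 in the mouse 1157 tumor cell. Its 1.44 FPKM in the tumor cell of mouse 1168 lies under that cell's receptor background of 1.60. These receptor genes differed by less than 1 on the log2(FPKM + 1) scale between the 2 cells of mouse 1168.

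Fzd9 and Fzd2 split the 2 cells of mouse 1168 in opposite ways. Fzd9 read 3.04 FPKM (CTC) and 0.178 (tumor), about 201 and 21 fragments. Fzd2 read 0.0454 and 1.40 FPKM, about 5 and 273 fragments. In mouse 1157 both were higher in the tumor cell, with Fzd9 at 0.105 against 1.03 and Fzd2 at 0.409 against 2.52 FPKM. In mouse PDGF1 Fzd9 was listed at 0 in both cells and Fzd2 was at 0.0267 and 0.0349 FPKM. The higher counts in mouse 1168, 201 for Fzd9 and 273 for Fzd2, are far from the 1 to 5 fragments of many low members. They come from 1 cell each and have no replicate check. The 1.40 FPKM of Fzd2 in the tumor cell of mouse 1168 also lies under that cell's receptor background of 1.60. In the tumor cell of mouse 1157 the 1.03 FPKM of Fzd9 lies under the background of 1.85.

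The other 5 receptor genes, Fzd4 to Fzd8, had highest values between 0.261 FPKM (Fzd4) and 0.876 (Fzd7). The co-receptor Lrp6 had CTC levels of 0.343, 0.563 and 0.0253 FPKM and tumor levels of 0.353, 1.45 and 1.54. The tumor cell was thus the higher one in 3 of 3 mice, though the values of mouse 1157 nearly coincide. The tumor values of 1.45 and 1.54 lie under the receptor backgrounds of their cells, 1.60 and 7.03 FPKM. Only the CTC of mouse 1168 held Lrp6 above its background, which was 0.135 FPKM. Lrp5 was at most 0.235 FPKM in any cell.

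Among cytoplasmic transducers, the Dishevelled genes did not move together. Dvl1 belonged to mouse 1168, with 9.90 FPKM (CTC) and 5.89 (tumor), and was at most 0.210 elsewhere. Dvl2 had CTC levels of 3.72, 2.92 and 0.0651 FPKM and tumor levels of 0.682, 12.2 and 11.3. The tumor cell was the higher one for Dvl2 in mice 1168 and PDGF1, and the CTC in mouse 1157, so the groups overlapped. Dvl2 exons overlap those of Acadvl, on the opposite strand, and Mir324, on the same strand, and their reads cannot be told apart here. Dvl3 had CTC levels of 0.190, 0.728 and 0.507 FPKM and tumor levels of 0.293, 0.494 and 1.71. The last of these lies under the receptor background of its cell, 7.03 FPKM.

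Csnk1e, a casein kinase that phosphorylates Dishevelled, had CTC levels of 1.37, 2.51 and 0.00778 FPKM and tumor levels of 3.57, 7.02 and 0.569. It was lower in the CTC in 3 of 3 mice and was the 1 member of the 7 tested with the same direction in all mice. In mouse PDGF1, however, both values lie under the receptor backgrounds of their cells, 3.50 and 7.03 FPKM. Of the 4165 genes tested, 15.3% were lower and 7.39% higher in the CTC of all 3 mice. The groups still overlapped, and on the log2 scale each group ranged more widely over the mice than the 2 cells of any mouse differed.

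Ctnnb1, which encodes beta-catenin, was the most abundant member in 3 of the 6 cells. Its CTC levels were 1.31, 34.6 and 0.183 FPKM, and its tumor levels 11.1, 50.1 and 0.147. On the log2 scale the largest gap within a mouse was that of mouse 1157, with the tumor cell higher, and in mouse PDGF1 both values were near 0. Ctnnb1 exons overlap those of Ulk4, on the opposite strand, and of Mir7090.

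Of its DNA-binding partners, Tcf7l1, often a repressor, had CTC levels of 0.321, 3.58 and 0.0895 FPKM and tumor levels of 2.08, 2.11 and 0.0425. Here the mouse 1157 tumor cell stood with the pair of mouse 1168, apart from the other 3 cells. Tcf7l2, a main partner of beta-catenin in many tissues, was at 4.79 FPKM in both cells of mouse 1168 and at most 0.575 elsewhere. Lef1 had CTC levels of 0.959, 0.0468 and 0.201 FPKM and tumor levels of 0.439, 2.02 and 2.42, so that tumor was higher in mice 1168 and PDGF1. In mouse PDGF1 the value of 2.42 lies under the receptor background of 7.03. Tcf7 stayed at or under 0.225 FPKM in all cells.

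The nuclear co-activators tie beta-catenin to the transcription machinery, with Bcl9 proteins binding beta-catenin and Pygo proteins binding Bcl9. Bcl9 had CTC levels of 0.455, 0.0107 and 0.0555 FPKM and tumor levels of 0.0383, 1.19 and 20.2. The last of these made it the highest member in the mouse PDGF1 tumor cell. Pygo1 had CTC levels of 0.0752, 5.20 and 0.0421 FPKM and tumor levels of 0.132, 0.991 and 0.357, with about 1276 and 431 fragments in mouse 1168. In mouse 1168 Pygo1 was higher in the CTC, and Pygo2 went the other way, with CTC levels of 1.11, 0.940 and 0.196 FPKM and tumor levels of 1.22, 8.25 and 0.0535 over the 3 mice. The 1.22 FPKM of Pygo2 in the tumor cell of mouse 1157 lies under that cell's receptor background of 1.85. Bcl9l was at most 0.455 FPKM.

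Rspo1, a secreted R-spondin, was the only member at 1 FPKM or more in all 6 cells and the highest member value in the series. CTC levels were 69.5, 6.43 and 1.36 FPKM, against tumor levels of 9.42, 1.55 and 1.55. The 69.5 FPKM in the CTC of mouse 1157 passed the 99th percentile of the receptor rows but lay just under the highest of them, at 70.3 FPKM. In mice 1157 and 1168 the CTC was the higher cell, and the 2 cells of mouse PDGF1 were close, with both under their receptor backgrounds. The tumor cell of mouse 1168 was also just under its own, at 1.55 against 1.60 FPKM. The gene lies on chromosome 4 from 124986430 to 125009099 (plus strand, GRCm38), with no exon of another gene over its own. The 250 bases before its RefSeq start (chr4:124986180-124986429, plus strand, GRCm38.p6), shown because this was the member found in all cells, held no match to the motif and no capitals are set.
Rspo1: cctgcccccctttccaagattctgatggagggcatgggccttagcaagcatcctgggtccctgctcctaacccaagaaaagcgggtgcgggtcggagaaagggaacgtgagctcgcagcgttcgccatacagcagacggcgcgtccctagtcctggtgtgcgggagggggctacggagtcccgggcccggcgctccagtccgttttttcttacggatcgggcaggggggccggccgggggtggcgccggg
Of these bases 66.8% are G or C.

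The Lgr receptors of R-spondins had another pattern. Lgr4 had CTC levels of 0.184, 0.138 and 0 FPKM and tumor levels of 9.13, 0.326 and 1.88. It was the 1 member of 50 whose CTC values all lay below the tumor cell values, where 2.88% of all rows with a value above 0 did. It reached 1 FPKM in only 2 cells and so was not among the genes tested. The 1.88 FPKM of the tumor cell of mouse PDGF1 lies under that cell's receptor background. Lgr5, a marker of stem cells in several tissues, had CTC levels of 0.321, 1.89 and 0.104 FPKM and tumor levels of 0.743, 0.465 and 0.113. Rspo2 was at most 0.0699 FPKM and Rspo3 at most 0.919.

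CTCs and tumor cells were then compared over the 3 mice, to ask whether transcripts of Wnt members differ between blood and tumor. No member passed. Among the 7 members tested, the highest difference was that of Rspo1 and the lowest that of Dvl2. For all 7 the difference was smaller than its standard error in the main test, which did not pair the cells by mouse. The test was limma on log2(FPKM + 1) with Benjamini-Hochberg adjustment over 4165 genes, those that reached 1 FPKM in 3 or more of the cells. Only Wnt5a, Dvl2, Csnk1e, Ctnnb1, Tcf7l1, Pygo2 and Rspo1 met that filter, and the other 43 members were not tested. The labels do not say more of the mice than their numbers, so p-values measure the spread between these cells.

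For Rspo1 the log2 difference, CTC minus tumor cell, was 1.40 (SE 2.67), and for Wnt5a it was 0.18 (SE 1.64). The other 5 were negative: -1.26 for Dvl2 (SE 2.02), -0.96 for Ctnnb1 (SE 2.62), -0.93 for Csnk1e (SE 1.42), -0.71 for Pygo2 (SE 1.004) and -0.20 for Tcf7l1 (SE 0.885). Every adjusted p was 0.99994 (limma), the smallest unadjusted p of a member was 0.477 (Pygo2, limma), and 0 of the 7 had an unadjusted p under 0.05. Over all genes 0 of 4165 passed (0%), with 7 at an unadjusted p under 0.05. The median difference of the 7 members was -0.71, against -0.06 for all genes tested. After rescaling the cells to equal sums over named protein-coding genes the same medians were -0.84 and -0.75, over the 18 members and 9691 genes that then met the filter. Without both cells of mouse 1168 the medians were 1.07 over the 2 members still tested and -0.15 over all genes. Without the tumor cell of that mouse alone they were 0.30 over 5 members and 0.96 over all genes, which had thus moved as well. The Rspo1 difference was 0.041 without the CTC of mouse 1157, and that of Dvl2 was -0.13 without both cells of mouse PDGF1. None of the 7 had its 3 CTC values all above or all below the tumor ones, as 0.264% of the genes tested had above and 1.3% below.

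With the mouse as a block, which compares the 2 cells of each mouse, 0 of the 7 members passed and 1 of the 4165 genes did (0.024%). The SEs were then 0.891 for Dvl2, 0.744 for Csnk1e, 0.643 for Pygo2 and 1.06 for Rspo1, and their adjusted p was 0.966 (limma). For these members the difference was larger than its SE, unlike for Wnt5a, Ctnnb1 and Tcf7l1. Of all genes tested 217 had an unadjusted p under 0.05 (limma), and 0 of the 7 members did.

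**Figure D3:**
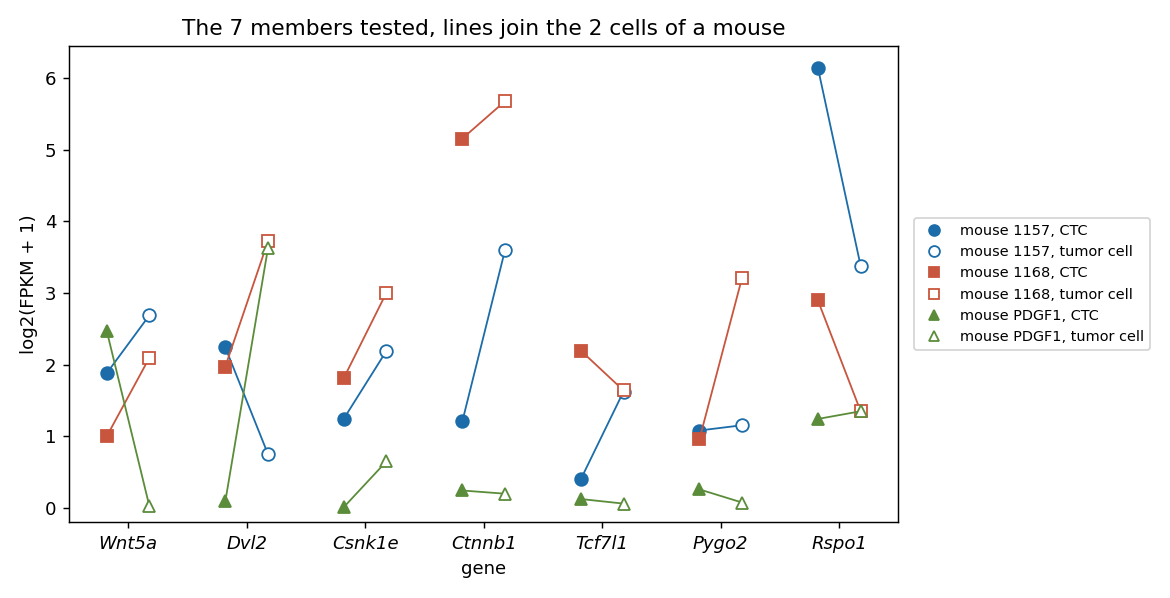
Levels of the 7 tested members as log2(FPKM + 1) in each cell, with filled symbols for CTCs, open symbols for tumor cells, and a line joining the 2 cells of a mouse. Lines of Csnk1e all rise toward the tumor cell, lines of the other 6 genes point both ways, and the mice lie far apart for Ctnnb1, from 0.147 to 50.1 FPKM.

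Within a mouse 1 cell was set against 1 cell, so these differences have no test and no replicate check. Members at 1 FPKM or more in either cell were counted when they differed by at least 1 on the log2(FPKM + 1) scale. In mouse 1168, 3 of 22 were higher in the CTC, where 22.7% of all 12396 genes measured were, and 8 of 22 were lower, where 24.9% were. Fzd9 (1.78), Pygo1 (1.64) and Rspo1 (1.54) were the higher ones. Pygo2 (-2.25), Dvl2 (-1.75), Lef1 (-1.53), Fzd2 (-1.20), Csnk1e (-1.19), Bcl9 (-1.12), Wnt5a (-1.10) and Wls (-1.01) were the lower ones. The median of the 22 was -0.34, against 0.04 for all genes measured in that mouse. Marker lists of several other cell types moved in the same direction as these 8. The microglia and macrophage markers did so, with 8 of 10 at 1 FPKM or more in the tumor cell and 3 in the CTC, among them Lyz2 at 1202 against 174 FPKM and Ctss at 672 against 19.4. Of 8 general leukocyte markers 4 and 0 were at 1 FPKM or more, with Cd52 at 203 against 0.377 FPKM. Of 6 pericyte and fibroblast markers 4 and 1 were, with sums of 29.3 and 2.63 FPKM, and of 6 endothelial markers 2 and 0, with sums of 9.27 and 0.723 FPKM. The pericyte marker found in the CTC was Rgs5, which was higher there, at 2.58 against 0.455 FPKM. Among lists with a marker at 1 FPKM or more, oligodendrocyte progenitor, platelet and epithelial markers went the other way by their sums. Their sums were 315, 72.2 and 2.39 FPKM in the CTC and 185, 13.0 and 1.03 FPKM in the tumor cell. Not every marker followed its sum. Sox10 was at 6.54 (CTC) against 18.3 FPKM (tumor) and Gpr17 at 0.113 against 10.3. The platelet sums were mostly Itga2b in the CTC, at 68.0 against 6.09 FPKM, while Gp1bb was at 4.11 against 6.62. The epithelial sum of the CTC was mostly Epcam, at 2.24 against 0.0961 FPKM, while Krt19 was at 0 against 0.806. The part of these cell types in the Wnt differences was not tested.

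**Figure D4:**
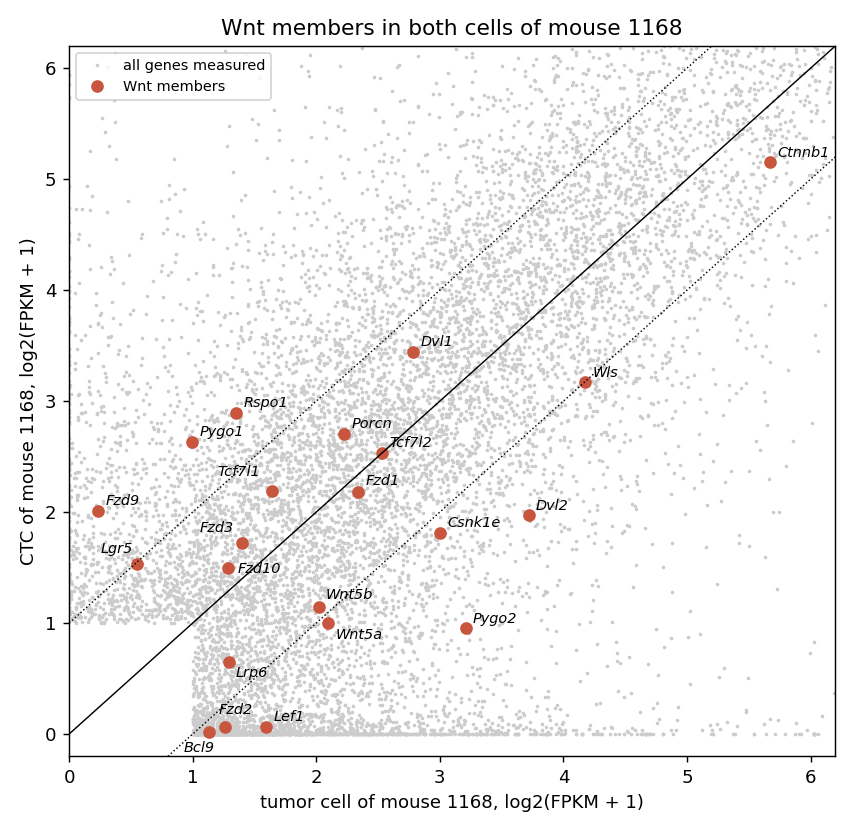
The CTC (vertical) against the tumor cell (horizontal) of mouse 1168, both as log2(FPKM + 1), for all genes at 1 FPKM or more in either cell (grey) and for Wnt members (red), with dotted lines at a difference of 1 and genes above the axis range not drawn. Fzd9, Pygo1 and Rspo1 lie above the upper dotted line, 8 members from Wls to Bcl9 lie below the lower one, and the others lie between them among the grey points.

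In mouse 1157, 3 of 16 members were higher in the CTC, Rspo1 (2.76), Dvl2 (1.49) and Wnt3a (1.26), where 29% of all 5961 genes measured were. The 5 lower ones were Lgr4 (-3.10), Ctnnb1 (-2.39), Wnt2b (-1.78), Fzd2 (-1.32) and Tcf7l1 (-1.22), where 37.1% were. The median of the 16 was -0.84, against -0.62 for all genes measured in that mouse. Of the pericyte and fibroblast markers, Col1a1 alone was at 1 FPKM or more in either cell, at 0.146 (CTC) and 74.3 FPKM (tumor). The other 5 were at most 0.469 FPKM, with Pdgfrb, Rgs5 and Col1a2 higher in the CTC, and the part of such cells was not tested.

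In mouse PDGF1, 2 of 9 members were higher in the CTC, Wnt5a (2.45) and Wnt9b (1.66), where 23.7% of all 4042 genes measured were. Another 5 were lower, Bcl9 (-4.33), Dvl2 (-3.53), Lgr4 (-1.53), Lef1 (-1.51) and Lrp6 (-1.31), where 59.9% were. Of the members named here for mouse PDGF1, only Wnt5a, Bcl9 and Dvl2 had a value above the receptor background of its cell. The median of the 9 was -1.31, against -1.18 for all genes measured in that mouse. No member passed this size in the same direction in all 3 mice. Those that passed it in 2 mice or more were Rspo1, higher in the CTC of mice 1157 and 1168, Fzd2, lower in the same mice, Lgr4, lower in mice 1157 and PDGF1, and Lef1 and Bcl9, lower in mice 1168 and PDGF1. In mouse 1168 the tumor cell values of Fzd2 and Bcl9, 1.40 and 1.19 FPKM, lie under that cell's background of 1.60. Wnt5a was lower in mouse 1168 and higher in mouse PDGF1, and Dvl2 was higher in mouse 1157 and lower in the other two.

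Other genes of the pathway were read from lists. Of 20 genes of planar polarity and other routes outside beta-catenin, 2 were tested and 0 passed in either direction (limma). The small GTPase gene Rac1 had CTC levels of 8.12, 101 and 8.30 FPKM and tumor levels of 4.62, 144 and 1.22. Ryk, a receptor for Wnt5a among others, was at 1.67, 43.5 and 0.0698 against 1.07, 19.4 and 2.67. Of 29 inhibitors, destruction complex genes and feedback targets, 3 were tested, all with a positive difference, and 0 passed in either direction (limma). The differences were 2.77 for Ccnd1 (SE 3.01), 0.30 for Csnk1a1 (SE 2.54) and 0.23 for Sp5 (SE 1.41), each smaller than its SE. Of all genes tested 52.9% had a negative difference. Sp5, a target of beta-catenin, had CTC levels of 23.3, 0.0994 and 0.0243 FPKM and tumor levels of 0.590, 1.81 and 2.81. Csnk1a1, a kinase that marks beta-catenin for breakdown, was at 2.17, 85.0 and 0.120 against 0.424, 63.4 and 0.798. Ccnd1, encoding cyclin D1, was higher in the CTC of mice 1157 and 1168, at 38.7 against 0.144 and 244 against 25.1 FPKM, and near 0 in both cells of mouse PDGF1. In mouse 1157 the CTC that was highest for Rspo1 was thus also the highest of the 6 cells for Sp5, a single library with no replicate check. In mouse 1168 the genes went opposite ways, with Rspo1 higher in the CTC, at 6.43 against 1.55 FPKM, and Sp5 lower. In mouse PDGF1 Rspo1 was close between the cells, at 1.36 (CTC) and 1.55 FPKM (tumor), while Sp5 was higher in the tumor cell. All of these values lie under the receptor backgrounds of their cells, 3.50 and 7.03 FPKM. A link between them was not tested.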

How the data were processed

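RNA of 3 CTCs and 3 tumor cells, 1 of each per mouse, was linearly amplified and sequenced from TruSeq stranded libraries, per the labels' protocols. The authors deposited 1 table of FPKM. STAR 2.4.2a, Cufflinks 2.2.1 and the build GRCm38 are listed, without settings, per the submitters' processing notes. Of 45038 rows, 27 with a date in place of a name and 211 with repeated names, some of them both, were left out, and 44804 remained. GENCODE mouse release 21 gave positions and transcript lengths for 41378.

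The FPKM worth of 1 fragment was read in each cell from low values of genes with 1 annotated transcript of 3000 bases or more. Of values of 1 to 5 fragments, 88.3% to 91.5% per cell lay within 0.1 of a whole number. For the 14 members with 1 transcript, fragments are rounded and approximate.

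Cells were grouped by the labels. limma 3.58.1 in R 4.3.3 tested log2(FPKM + 1), with a mean-variance trend, two-sided, with Benjamini-Hochberg adjustment over 4165 genes and a threshold of 0.05. The code was also run on simulated independent values with the same spread for all genes and no mouse effect. That run does not show how the test fares on these cells. The log2(FPKM + 1) scale understates changes of low genes. Each mouse gave both cells, so the mouse pairs them. Deviations from the group means correlated at 0.178, 0.689 and 0.428 between the cells of mice 1157, 1168 and PDGF1, and at -0.622 to 0.422 between cells of different mice, highest for the CTC of PDGF1 with the tumor cell of 1157. Alternatives changed the pseudocount, filter, scaling, block, detection level and cells used. A scaling over named protein-coding genes was chosen after seeing the data.

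The members and lists were chosen with earlier results of these data known. Every member is accounted for. Members at 1 FPKM or more in any cell, or tested, were named with all values or with their highest values and the bound of the other cells, members under 1 FPKM with a highest value or range, and other lists by counts and up to 4 tested genes of smallest unadjusted p. Lyz2, Ctss, Cd52, Col1a1, Pdgfrb, Rgs5, Col1a2, S100b and Gfap were named after their values were seen. So were Olig2, Nkx2-2, Bcan, Sox10, Gpr17, Itga2b, Gp1bb, Epcam and Krt19. Python 3.11.15 with numpy 2.4.6, pandas 2.3.3 and matplotlib 3.10.9 did the rest.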

Additional observations from a re-analysis of the deposited data

How the results depend on the processing

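No member passed under any of the 16 alternatives run. Over all genes the count stayed at 0 except with the mouse as a replicate block, where 1 gene passed, the small nucleolar RNA gene Snora2b (smallest adjusted p = 0.00906, limma). The median difference of tested members moved from -0.71 to -0.10 with no filter, over 50 members, and ran from -1.07 to 1.07 when 1 cell or both cells of a mouse were left out. The difference in members detected, CTC minus tumor cell, was -5.67 at 0.5 FPKM, -1.67 at 5 FPKM, -8 after rescaling to equal sums over all rows and -11.3 after rescaling over named protein-coding genes, and it ran from -3.5 to -3 without each mouse. Rescaling moved the median of all genes tested from -0.06 to -0.48 over all rows and -0.75 over protein-coding genes, and a pseudocount of 0.1 moved it to -0.31. Members above the receptor background differed by 5 on average, by 6 at the 95th percentile, by 0.667 against the highest receptor row, and by 0.5 to 8 without each mouse. Pygo2 turned to 0.10 with quantile normalization. With cells left out, Wnt5a ran from -0.95 to 0.82, Ctnnb1 from -2.43 to 0.30 and Tcf7l1 from -0.72 to 0.19, so their directions rest on single cells. Dvl2, Csnk1e and Rspo1 kept their direction in every alternative that tested them, but Rspo1 ran down to 0.041 without the CTC of mouse 1157 and Dvl2 to -0.13 without mouse PDGF1. Scaling also changed their size. Rspo1 was 0.50 with quantile normalization, 0.77 after rescaling over all rows and 0.52 after rescaling over protein-coding genes. Under the last of these Dvl2 was -2.72 and Csnk1e -2.75, while the median of all genes was -0.75. Of the 43 members not tested by the filter, most rest on 1 or 2 cells, and low FPKM in the 4 cells of mice 1157 and PDGF1 limits what can be seen there.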
